A study of Brassica rapa with 6 samples.

Results

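The miR172 family was followed in small RNA libraries of leaf and petiole from Chinese cabbage (Brassica rapa), where the petiole is the fleshy stalk carrying the blade. Its members were the entries named miR172 with any letter, arm or species prefix, taken by name and not by level. The table held 22 such entries, which came to 19 distinct sequences of 1011 in all. Both tissues were labelled wild type and came from plants grown in a greenhouse, with 3 libraries per tissue. The cultivar, the age of the plants and whether the libraries came from separate plants were not given in the sources used here. In whole tissue, fewer cells of a type and less RNA per cell cannot be told apart.

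In plants the miR172 precursor gives a 3p strand, which represses transcription factors of the APETALA2 type, and a 5p strand, which pairs with it in the duplex and is usually discarded. In Arabidopsis the repressed genes include AP2, the TOE genes, SMZ and SNZ, which delay flowering and the adult phase. There miR156 holds back SPL factors in young shoots, and SPL factors later activate a miR172 gene, so that the 2 miRNAs are known for running in opposite directions as a shoot matures.

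The sequences are shown because the 3p forms share 1 core while the 5p forms differ from each other by substitutions. Which precursor each form came from was not tested. They are printed 5′ to 3′ as DNA letters from the deposited table, with bases 2 to 8, the seed, in capitals. The 5p forms and then the 3p forms, each with a mean normalized count of at least 50 or among the main annotated forms, were as follows.
bra-miR172b-5p: gCAGCACCattaagattcaca
aly-miR172b-5p: gCAGCACCatcaagattcaca
aly-miR172a-5p: gTGGCATCatcaagattcaca
bra-miR172d-5p: gCAGCATCattaagattcaca
bra-miR172a: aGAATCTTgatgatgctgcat
bra-miR172d-3p: gGAATCTTgatgatgctgcat
bra-miR172c-3p_R-1: aGAATCTTgatgatgctgca
ath-miR172a_R+1: aGAATCTTgatgatgctgcatt
mtr-miR172b_L+1: aAGAATCTtgatgatgctgcat
mtr-miR172b_L+2: aAAGAATCttgatgatgctgcat

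The prefixes name the species of the matched miRNA (bra Brassica rapa, aly Arabidopsis lyrata, ath Arabidopsis thaliana, mtr Medicago truncatula), and L and R give the number of bases gained or lost on the left and right. Substitutions are written as the base of the reference form, its position from the 5′ end, and the base of the other form. Against bra-miR172b-5p, aly-miR172b-5p differed by T11C and bra-miR172d-5p by C7T. The form aly-miR172a-5p differed by C2T, A3G, C7T and T11C. On the 3p side bra-miR172d-3p differed from bra-miR172a by A1G, outside the seed. The other 3p forms shown were bra-miR172a with bases added or removed at an end, so the letters in their names do not show which precursor they came from.

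Set against each other with overhangs of 2 bases at each 3′ end, bra-miR172b-5p and bra-miR172a faced each other at 19 positions, of which 16 were Watson-Crick pairs, 1 a G-T pair and 2 unpaired. The unpaired positions were 7 and 19 of the 5p strand. With aly-miR172b-5p there were 17 Watson-Crick pairs, none of the G-T kind, and the same 2 unpaired positions. For bra-miR172d-5p, 17 positions were Watson-Crick pairs, 1 was a G-T pair and position 19 alone was unpaired. Position 19 faces the first base of the 3p strand, and it was unpaired whether that base was the A of bra-miR172a or the G of bra-miR172d-3p.

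By arm, 9 sequences were 5p forms and 8 were 3p forms. The remaining 2, nta-MIR172e-p3_2ss15CG19TA and nta-MIR172f-p3_2ss14CG18TA, were listed under both arms with the same letters. They shared at most 4 bases in a row with any other member, so their sequences do not bear out the family label, and they were left out of the arm sums. Grouped by seed, 6 of the 8 3p sequences shared GAATCTT, and the forms with 1 and 2 extra bases at the 5′ end each had a seed of their own. Of the 9 5p sequences, 4 shared the seed CAGCACC.

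Library totals here are sums over the 1011 distinct sequences listed, not the sequencing depth. They stood for 729550 to 771494 reads in leaf and 457189 to 474175 in petiole, with the regular step of low values in each library taken as 1 read. The family accounted for 19131 to 24551 of these reads per leaf library and 21136 to 24359 per petiole library. A sequence listed at 0 was not taken as absent, since values above 0 but under 1.5 reads were nearly missing, with at most 3 per library. Counting error is largest for low values. Leaf totals were higher than petiole totals on the deposited scale, as they were in reads. Setting all library totals equal shifted the median log2 difference of the 601 tested sequences up by 0.79. Differences of the miR172 sums and tested members are therefore given on both scales, for some members in a figure only. Shares and ratios within a library do not change when a library is multiplied by 1 factor. The tested log2 ratios carry an added 1 in each arm, so those of low forms moved with the scale, and quantile normalization, which is not a single factor, moved them too. No replicate of leaf or petiole was counted as a repeat of another.

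The arms of miR172 differed in opposite directions between the tissues on the deposited scale. The summed 5p forms were 2.87-fold higher in petiole and the summed 3p forms 1.44-fold lower. Within each library the 5p share of both arms was about 10% in leaf and about 32% in petiole. The 3p strand remained the more abundant arm in each of the 6 libraries.

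The 5p sum was 1987, 2617 and 2457 normalized counts in the leaf libraries and 6738, 7178 and 6316 in the petiole libraries. Every petiole value lay above every leaf value. Its petiole minus leaf difference was 1.53 ± 0.11 on the log2 scale (SE, n = 3 per tissue), with a limma adjusted p of 2.6e-05 over 120 arm sums. Of these arm sums 29.2% were called higher in petiole. With equal totals the difference was 2.38 ± 0.11.

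The 3p sum was 17847, 22957 and 21606 in the leaf libraries and 14370, 16173 and 12784 in the petiole libraries. The tissues did not overlap, and leaf replicate 1 stood closest to petiole. The log2 difference was -0.52 ± 0.12 (SE, n = 3 per tissue), with a limma adjusted p of 0.0078, and 50.8% of all arm sums were called lower in petiole. The median of all arm sums was -0.53 on the same scale. With equal totals the 3p sum turned to 0.33 ± 0.11 and was called higher (limma adjusted p = 0.0357), as were 45.8% of arm sums, beside a median of 0.32 for all of them. On both scales the 3p sum thus lay within 0.02 of the median arm sum, while the 5p sum lay above that median.

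**Figure D1:**
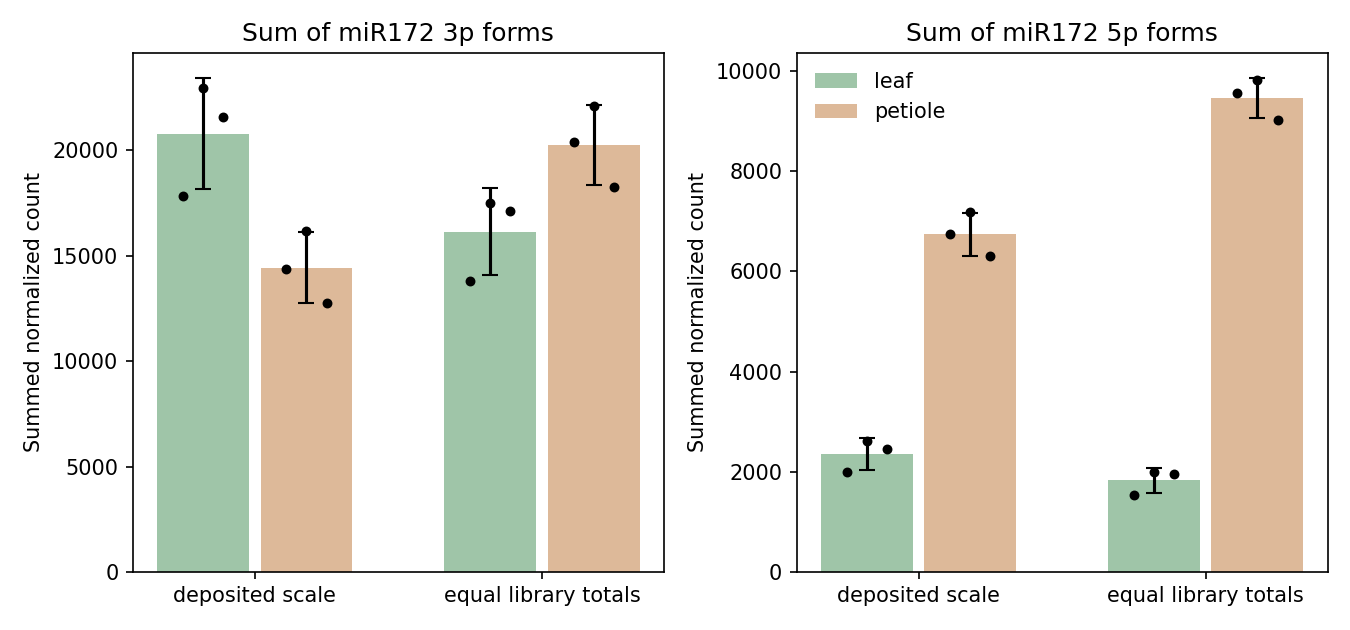
Summed normalized counts of the miR172 3p forms (left) and 5p forms (right) in leaf (green) and petiole (brown), on the deposited scale and with equal library totals; bars are means of 3 libraries, error bars SD, points single libraries. The 5p sum is higher in petiole on both scales, whereas the 3p sum is lower on the deposited scale and higher with equal totals.

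The share of 5p forms in both arms was 10.02%, 10.23% and 10.21% in the leaf libraries and 31.9%, 30.7% and 33.1% in the petiole libraries. The gap of 21.8 percentage points was far larger than the spread among replicates, with an SD of 0.12 in leaf and 1.16 in petiole. In other terms, 8.85 ± 0.12 3p counts stood beside each 5p count in leaf and 2.14 ± 0.11 in petiole (SD, n = 3). The log2 ratio of 5p to 3p sums differed by 2.05 ± 0.08 (SE), with a limma adjusted p of 3.5e-05 over 46 families with both arms. An exact two-sided permutation test gave 0.1, the smallest p that 3 against 3 libraries allow.

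Among the 46 families this difference was the 4th highest, with 21.7% of families called higher in petiole, 41.3% called lower, and a median of -0.41. The families above it were miR1511, miR9566 and miR162, with SEs of 1.18, 0.97 and 0.26. Of these miR9566 was not called (limma adjusted p = 0.0801). On the deposited scale 3 of the 46 families had their 5p sum called higher and their 3p sum called lower, namely miR162, miR166 and miR172. With equal totals only miR162 of these 46 met that description, since the 3p sum of miR172 was then called higher.

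**Figure D2:**
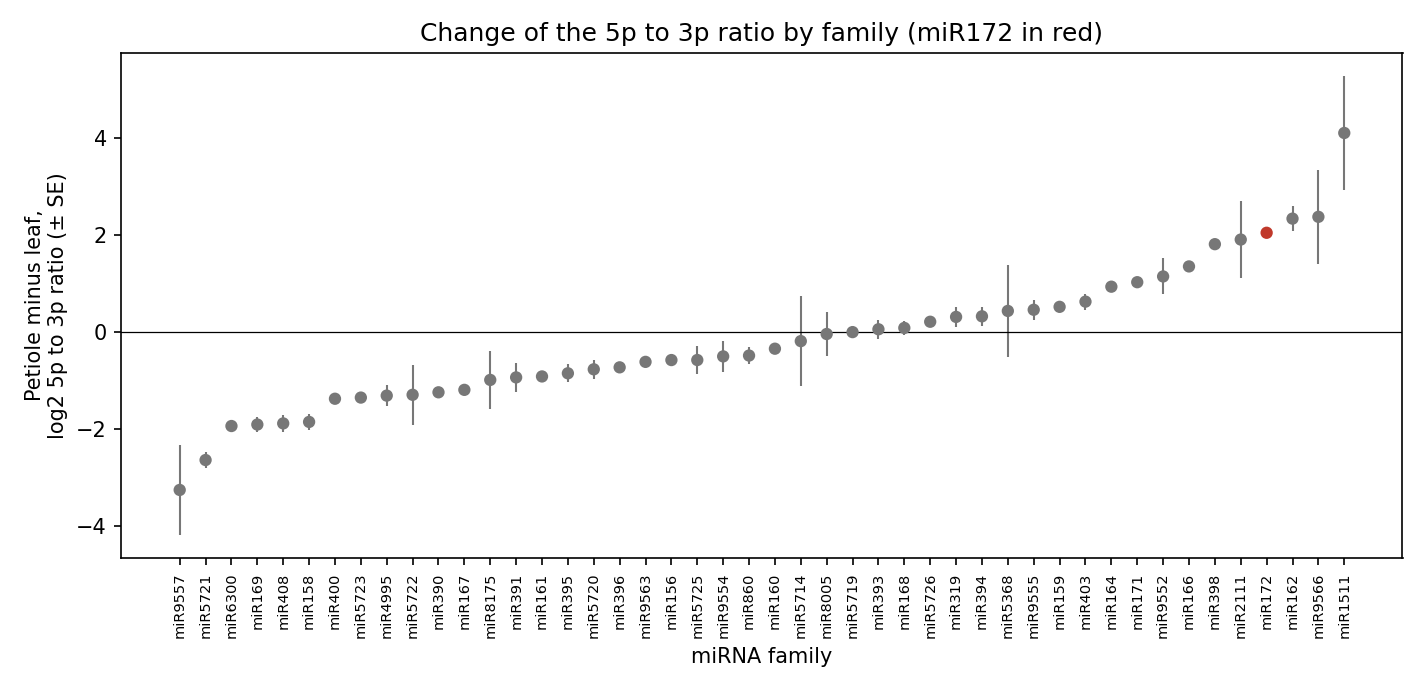
Petiole minus leaf difference of the log2 5p to 3p ratio for each of the 46 families with both arms measured, sorted, with SE as vertical lines (fitted over 3 libraries per tissue). The miR172 family, in red, is the 4th highest at 2.05, and its SE of 0.08 is smaller than the point.

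As a share of the counts summed over the distinct listed sequences of a library, the family made up 2.93% ± 0.37 in leaf and 4.85% ± 0.38 in petiole (SD, n = 3). An exact two-sided permutation test gave p = 0.1, the smallest possible. The 5p forms held 0.298% ± 0.041 of these summed counts in leaf and 1.54% ± 0.065 in petiole, and the 3p forms 2.63% ± 0.33 and 3.30% ± 0.31. The lowest petiole library exceeded the highest leaf library for both shares. On the deposited scale the family sum averaged 23165 in leaf and 21194 in petiole, and its log2 difference of -0.12 did not pass (limma adjusted p = 0.344 over 80 families, of which 81.2% were called). With equal totals it was 0.73 and called higher, as were 48.8% of families.

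Of the 19 sequences, 13 had a mean of at least 5 and were tested with the whole table. Among them 3 were called higher and 6 lower in petiole on the deposited scale, beside 21.3% and 28.3% of all 601 tested sequences (49.6% either way). The tissues did not overlap in 10 of the 13, against 59.7% of all tested sequences. By arm, 3 of 5 tested 5p forms were higher and none was lower, and 6 of 7 tested 3p forms were lower and none was higher. With equal totals, 4 of the 5 5p forms were called higher, and the 7 3p forms gave 3 higher and 2 lower calls, beside 53.4% higher and 17.8% lower calls in the table. The median difference of the 13 was -0.53 on the deposited scale, against 0.18 for all tested sequences, and 0.33 with equal totals, against 0.97. Sequences that passed the filter on the mean through 1 tissue had to differ, so these counts describe the family and do not test it.

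**Figure D3:**
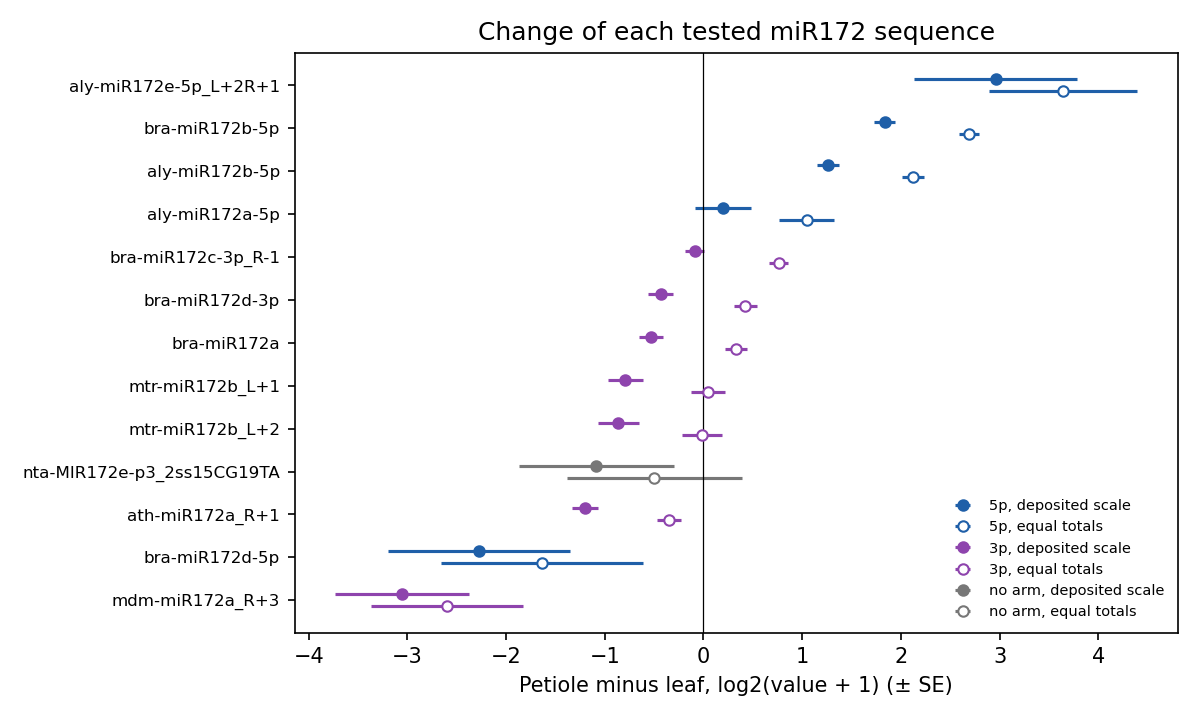
Petiole minus leaf difference on the log2(value + 1) scale for the 13 tested miR172 sequences, with SE bars (3 libraries per tissue), in blue for 5p, purple for 3p and grey for no arm. Filled points are on the deposited scale and open points with equal totals, which shift each sequence to the right; bra-miR172d-5p is the one 5p form to the left of 0 on both scales.

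The 5p form bra-miR172b-5p had 999, 1228 and 1219 normalized counts in leaf and 4031, 4503 and 3768 in petiole. It was 3.57-fold higher in petiole, with all petiole values well above the leaf values. The log2 difference was 1.84 ± 0.11 (SE, n = 3 per tissue) with a limma adjusted p of 1.5e-05. In leaf it was about as abundant as aly-miR172b-5p, and in petiole it was the leading 5p form.

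The closely related aly-miR172b-5p, separated by T11C, had 846, 1140 and 1000 in leaf and 2480, 2339 and 2313 in petiole. Its rise was 2.39-fold, with a log2 difference of 1.27 ± 0.11 (limma adjusted p = 0.00011). Within a library bra-miR172b-5p was 1.16 ± 0.07 times as abundant as aly-miR172b-5p in leaf and 1.73 ± 0.17 times in petiole (SD, n = 3). The log2 ratio of the pair thus differed by 0.57 between tissues that did not overlap (exact two-sided permutation p = 0.1, the smallest possible). Reads that match both closely could have been divided between them.

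The form aly-miR172a-5p had 122, 216 and 215 in leaf and 173, 279 and 177 in petiole. The tissues overlapped, and its log2 difference of 0.20 ± 0.29 (SE, n = 3 per tissue) did not pass (limma adjusted p = 0.584). With equal totals it was called higher (1.05 ± 0.28). The form bra-miR172d-5p, separated from bra-miR172b-5p by C7T, was low, with 18.7, 28.1 and 14.8 in leaf and 0, 11.5 and 5.43 in petiole. On the deposited scale its petiole values lay below its leaf values, yet the log2 difference of -2.27 ± 0.92 did not pass (limma adjusted p = 0.0826). The values rested on 14 to 27 reads in leaf and at most 12 in petiole. Without petiole replicate 1 the difference was -1.22 (adjusted p = 0.0834), and without petiole replicate 2 it was -3.04 and passed (0.0433). With equal totals the tissues overlapped, and the difference of -1.64 ± 1.02 did not pass (limma adjusted p = 0.186).

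A longer 5p form, aly-miR172e-5p_L+2R+1, is bra-miR172b-5p with 2 bases added at the 5′ end. It had 0, 5.21 and 8.47 in leaf and 28.4, 25.9 and 34.4 in petiole, a log2 difference of 2.96 ± 0.83 (limma adjusted p = 0.0255). The call was lost without any single petiole replicate (adjusted p from 0.0725 to 0.0796). Further 5p forms with an added base, ath-miR172b-5p_R+2, ath-miR172b-5p_L+1R+1 and cme-MIR172d-p5, were listed at 0 in each leaf library and averaged 8.11, 7.50 and 3.43 in petiole. The form lus-miR172j_L+1R-1 was listed in petiole replicate 1 at 4.73 and at 0 elsewhere. These 4 had means under 5 and were not tested.

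The main 3p form bra-miR172a, the strand that targets AP2-type genes, had 14603, 18798 and 17616 in leaf and 11768, 13155 and 10391 in petiole. It made up most of the family in both tissues, and leaf replicate 1 was its lowest leaf library. On the deposited scale the log2 difference was -0.53 ± 0.12 (SE, n = 3 per tissue; limma adjusted p = 0.0125). Without leaf replicate 3 it was -0.50 with an adjusted p of 0.0507, and with equal totals it turned to 0.33 and was called higher (adjusted p = 0.0387).

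Its relative bra-miR172d-3p, with G as first base, had 2456, 3097 and 2982 in leaf and 2032, 2420 and 1878 in petiole. The log2 difference of -0.43 ± 0.13 passed with all libraries (limma adjusted p = 0.0294), but not when leaf replicate 2, leaf replicate 3, petiole replicate 1 or petiole replicate 3 was left out (adjusted p from 0.0922 to 0.0969). With equal totals it was 0.42 and called higher. The ratio of the pair moved little. Per bra-miR172a count there was 0.167 ± 0.002 of bra-miR172d-3p in leaf and 0.179 ± 0.006 in petiole (SD, n = 3).

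**Figure D4:**
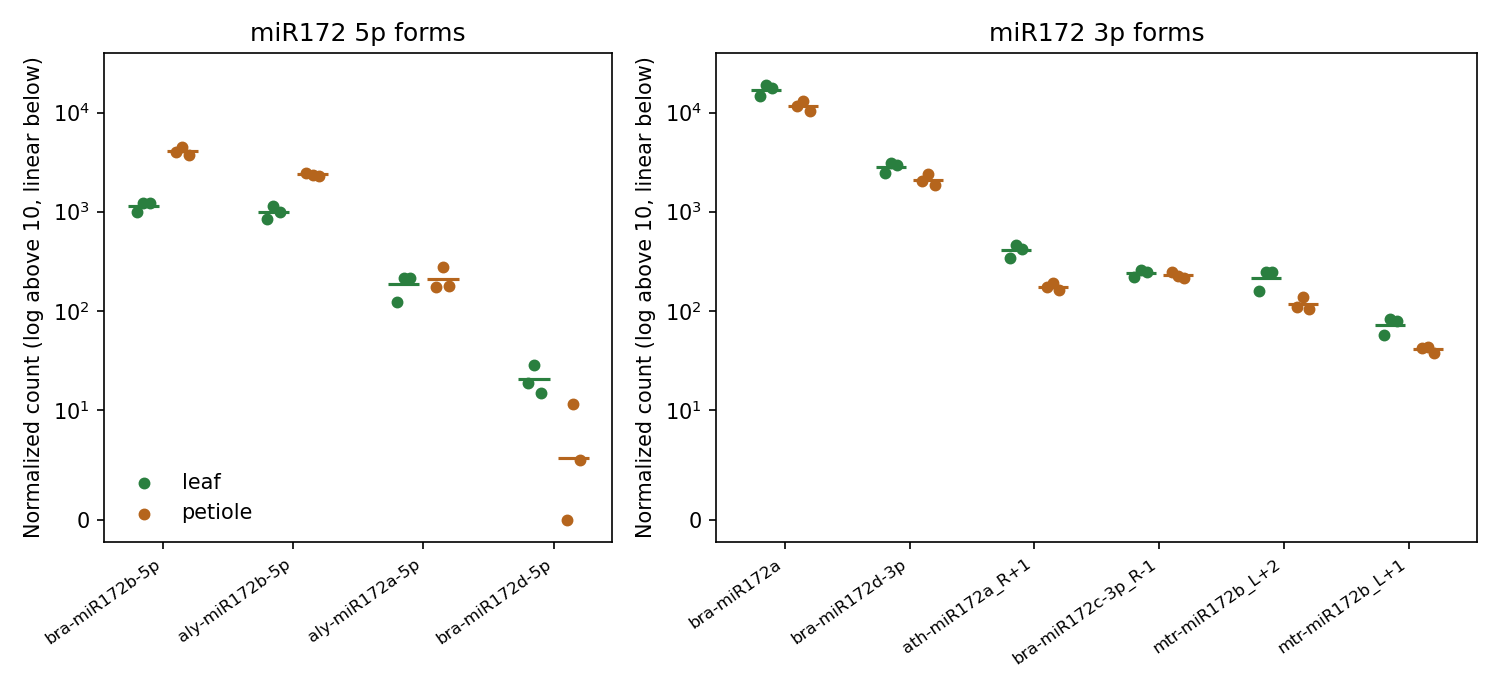
Normalized counts of miR172 5p forms (left) and 3p forms (right) in each leaf (green) and petiole (brown) library, with the mean as a horizontal line; the axis is logarithmic above 10 and linear below. The forms bra-miR172b-5p and aly-miR172b-5p are higher in petiole, most 3p forms are lower, and bra-miR172c-3p_R-1 and aly-miR172a-5p overlap.

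The 3p forms with altered ends were also set against bra-miR172a in the same library. The log2 ratio to bra-miR172a differed between petiole and leaf by -0.67 for ath-miR172a_R+1, -0.33 for mtr-miR172b_L+2, -0.26 for mtr-miR172b_L+1 and 0.44 for bra-miR172c-3p_R-1. In each case the tissues did not overlap (exact two-sided permutation p = 0.1, the smallest possible). The form ath-miR172a_R+1, with 1 T added at the 3′ end, had 341, 463 and 419 in leaf and 175, 189 and 162 in petiole. It was 2.32-fold lower in petiole, with a log2 difference of -1.20 ± 0.13 (SE, n = 3 per tissue; limma adjusted p = 3.0e-04), and it was called lower with equal totals too (-0.35 ± 0.12). The form mdm-miR172a_R+3, with 2 bases added at that end, had 13.5, 12.5 and 13.2 in leaf and 3.84 in petiole replicate 2, and was listed at 0 in the other petiole libraries. Its limma adjusted p was 0.0102.

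In contrast bra-miR172c-3p_R-1, which lacks the last base, had 220, 260 and 246 in leaf and 244, 224 and 212 in petiole. The tissues overlapped and the log2 difference of -0.09 ± 0.10 did not pass (limma adjusted p = 0.456). With equal totals it was called higher (0.76). Both forms extended at the 5′ end were lower on the deposited scale. The form mtr-miR172b_L+1 averaged 72.4 ± 13.8 in leaf and 40.9 ± 3.35 in petiole, with a range of 56.5 to 81.8 in leaf and 37.1 to 43.2 in petiole. Its sister mtr-miR172b_L+2 averaged 216 ± 50.3 and 117 ± 17.96 (SD, n = 3). The call of mtr-miR172b_L+2 (limma adjusted p = 0.0138) did not hold without leaf replicate 2, leaf replicate 3, petiole replicate 1 or petiole replicate 3, with adjusted p from 0.0509 to 0.0553. With equal totals the log2 differences of these forms were 0.047 and -0.014 and did not pass.

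The remaining sequences were low. The 3p form gma-miR172k, which differs from bra-miR172a by A1T, was listed at 6.35 in leaf replicate 3 and at 0 in the other libraries. Of the sequences without an arm, nta-MIR172e-p3_2ss15CG19TA averaged 6.45 in leaf and 3.71 in petiole and did not pass (limma adjusted p = 0.291), and nta-MIR172f-p3_2ss14CG18TA was at most 7.23 in any library.

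The isoform composition of each arm differed between the tissues by small amounts on the 3p side and by larger ones on the 5p side. Of 41 shares compared, 37 did not overlap between tissues, and each of these had the smallest exact two-sided permutation p of 0.1 (0.111 after Benjamini-Hochberg adjustment over the 41), so that no share could pass 0.05. Many of the shares overlap in what they count, and some rest on the same single sequence. Shares were not computed for other families, so this count has no matching background and is not read as particular to miR172. In levels on the deposited scale, 59.7% of all tested sequences did not overlap between the tissues.

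Among 5p forms, bra-miR172b-5p made up 49.0% ± 1.78 of the 5p sum in leaf and 60.7% ± 1.74 in petiole (SD, n = 3). The share of aly-miR172b-5p was 42.3% ± 1.45 in leaf and 35.3% ± 2.38 in petiole, and that of aly-miR172a-5p 7.72% ± 1.37 and 3.09% ± 0.70. For bra-miR172d-5p the shares were 0.873% ± 0.243 and 0.082% ± 0.080. Nearly the whole 5p sum was 21 bases long in both tissues, 99.8% in leaf and 99.3% in petiole.

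Among 3p forms, bra-miR172a held 81.7% ± 0.19 of the 3p sum in leaf and 81.5% ± 0.34 in petiole, and these shares overlapped. The form that starts with G, bra-miR172d-3p, held 13.7% ± 0.17 and 14.6% ± 0.42. The form with 1 base added at the 3′ end went from 1.95% ± 0.05 in leaf to 1.22% ± 0.05 in petiole, and the form 1 base shorter from 1.17% ± 0.06 to 1.58% ± 0.17. Forms with 2 bases added at the 5′ end held 1.03% ± 0.13 and 0.806% ± 0.046. The longer 3p forms thus had lower shares in petiole than in leaf and the shorter form a higher one, by less than 1 percentage point each.

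**Figure D5:**
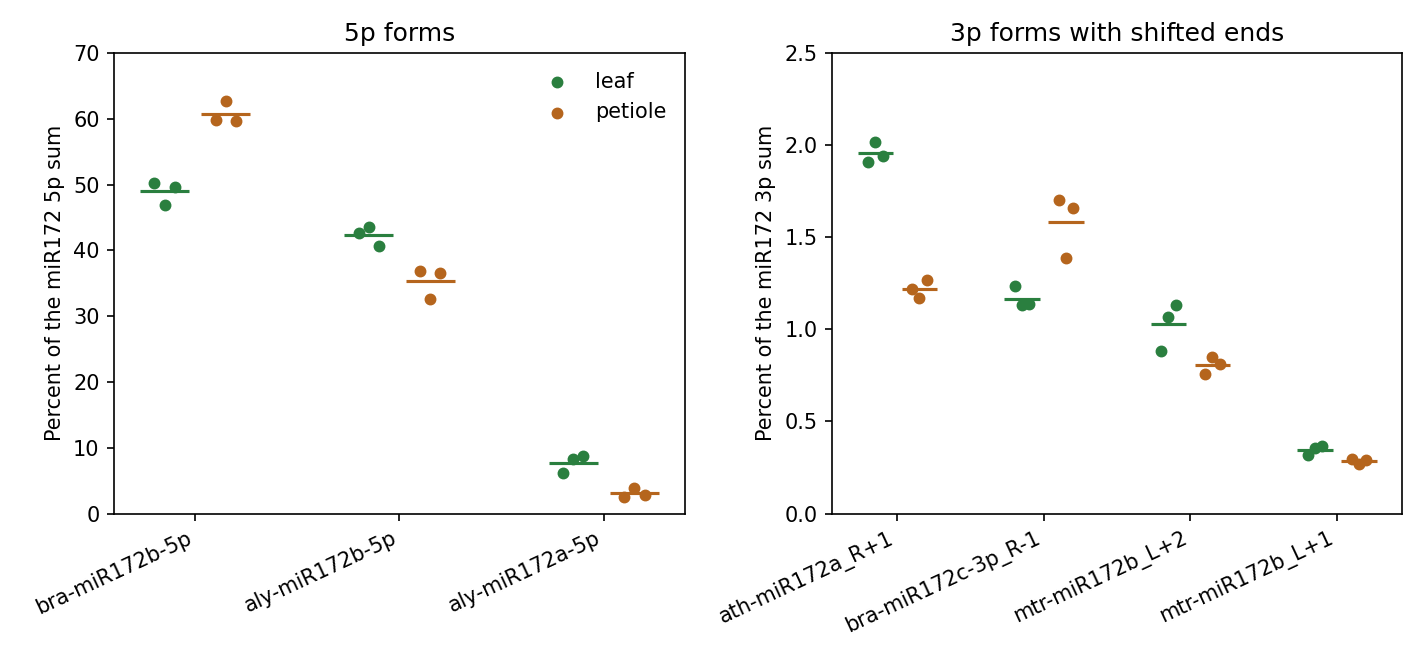
Shares of 3 forms in the miR172 5p sum (left) and of 4 forms with shifted ends in the 3p sum (right), in percent per library, for leaf (green) and petiole (brown), with the mean as a line. The share of bra-miR172b-5p is higher in petiole, at 60.7% against 49.0%, and that of ath-miR172a_R+1 is lower, at 1.22% against 1.95%.

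By locus letter, as given in the names with species dropped, both arms were measured for a, b and d. Forms named b averaged 2144 ± 269 on the 5p and 288 ± 64.1 on the 3p side in leaf, and 6494 ± 382 and 158 ± 20.4 in petiole (SD, n = 3). Their log2 5p to 3p ratio differed by 2.45 ± 0.16 (SE), with a limma adjusted p of 3.1e-05 over 32 labels, of which 34.4% were called higher and 21.9% lower. The 3p forms under this letter were the 5′-extended ones, and the 3p core shared by the letters was counted under a.

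Forms named a averaged 184 ± 53.7 on the 5p and 17426 ± 2224 on the 3p side in leaf, and 210 ± 60.1 and 11948 ± 1398 in petiole. Their log2 ratio differed by 0.74 ± 0.22 (limma adjusted p = 0.0292), a call that was lost without leaf replicate 1 (0.58), petiole replicate 2 (0.60) or petiole replicate 3 (0.76). For the letter d the 5p side averaged 20.5 in leaf and 9.08 in petiole beside 3p sums of 2845 and 2110, and the log2 difference of -0.75 ± 0.39 did not pass (limma adjusted p = 0.146). It depended on the processing and on 1 library, at -1.84 with bra names only (adjusted p = 0.154), -0.37 without petiole replicate 1 (0.329) and -1.74 after quantile normalization, where it was called lower (0.0236). The 5p side of letter d included cme-MIR172d-p5, which averaged 3.43 in petiole and was listed at 0 in leaf. By sequence that form is aly-miR172b-5p with 1 base added at the 3′ end, without the C7T of bra-miR172d-5p. The arm-placed forms of letters c and k were on the 3p side and those of e and j on the 5p side. Whether the letters differ from each other in this change was not tested. The RefSeq annotation of Brassica rapa assembly CAAS_Brap_v3.01 names 3 miR172 genes, MIR172A, MIR172C and MIR172D.

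Set against miR156, the miRNA of the juvenile phase, the 3p strand of miR172 was relatively more abundant in the petiole libraries. The 3p sum of miR172 was 2.26, 3.18 and 3.11 times the summed miR156 and miR157 forms in the leaf libraries and 4.84, 5.77 and 4.69 times in the petiole libraries. The miR156 and miR157 forms were summed without regard to arm, so this is not a ratio of matching strands. By arm they differed by -1.61 for 5p and -1.03 for 3p on the deposited log2 scale. Each petiole ratio exceeded each leaf ratio, and leaf replicate 1 had the lowest. The log2 ratio differed by 0.85 (SD 0.27 in leaf and 0.16 in petiole, n = 3; exact two-sided permutation p = 0.1, the smallest possible). It combined a 3p sum near the median of arm sums with a miR156 sum of 7348 ± 484 in leaf and 2834 ± 124 in petiole.

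Other families known from phase change and flowering time (miR156, miR157, miR159, miR169, miR319, miR390, miR399 and miR824) held 71 sequences, of which 50 were tested. On the deposited scale 25 were higher and 16 lower in petiole, and with equal totals 34 and 11. Of all tested sequences 21.3% were higher and 28.3% lower on the deposited scale, and 53.4% and 17.8% with equal totals, which is the background for the counts by family as well. Among 11 tested miR156 sequences 2 were higher and 7 lower (4 and 6 with equal totals), led by bna-miR156b, which averaged 4100 ± 340 in leaf against 1426 ± 60.4 in petiole (SD, n = 3). The 1 tested miR157 sequence, ath-miR157a-3p, went from 50.2 ± 3.36 to 17.98 ± 3.14. Both stayed lower with equal totals. Of 9 tested miR159 sequences, a family that targets GAMYB factors, 1 was higher and 6 were lower, which became 4 and 2 with equal totals. The leading form bra-miR159a fell by 0.77 on the log2 scale (limma adjusted p = 4.1e-05) but stood at 0.083 with equal totals.

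In the opposite direction 4 of 5 miR390 and both miR824 sequences were higher, the leading miR824 form, which targets a MADS-box gene, from 5262 ± 580 to 10759 ± 787. Of 7 tested miR169 sequences, a family that targets NF-Y subunits, 3 were higher and 2 lower, and 5 and 2 with equal totals. Its leading form ath-MIR169e-p3 averaged 27.9 ± 6.66 in leaf and 152 ± 14.5 in petiole. By arm, the miR169 3p sum was called higher on the deposited scale (limma adjusted p = 4.6e-04). The miR169 5p sum was not called, with a log2 difference of -0.402 (limma adjusted p = 0.168). The rise was thus not seen in both arms, and which strand acts on NF-Y subunits was not tested. The leading miR399 form, ath-miR399b, from a family of the phosphate response, averaged 8.38 and 31.1 and did not pass on the deposited scale (limma adjusted p = 0.0875). It was called higher with equal totals (3.17, adjusted p = 0.0225) and without leaf replicate 2, where it is listed at 0 (1.23, adjusted p = 0.0134). The miR319 forms, which target TCP factors, had 13 higher calls of 13 tested and gave more calls than any other family of the list; those listed at 0 in leaf passed the filter through petiole alone.

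Among 177 other sequences with a mean of at least 50, the profile over the 6 libraries nearest to that of bra-miR172a was that of bna-MIR166e-p5_1ss4AT, with a Euclidean distance of 0.11 between log2 values centred on their own means. Next came PC-3p-1484_1548, a predicted miRNA, and aly-miR171b-5p, both at 0.25. Within the family bra-miR172d-3p lay at 0.14, while aly-miR172b-5p and bra-miR172b-5p lay at 2.21 and 2.90. These distances describe 6 libraries of 2 tissues and largely reflect the difference between the tissues.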

How the data were processed

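Total RNA of leaf and petiole was made into small RNA libraries, and the authors cleaned the reads with ACGT101-miR, per the labels' protocols. No source used here gives the aligner, genome build or miRBase release. The deposited signal values are normalized counts, per the file headers; how each library was scaled is not given. Low values lay on a step per library. Within 0.02 reads, 68.9% to 75.5% were whole reads and 96.4% to 99.2% were multiples of 0.5 reads. Whole-number counts could therefore not be taken back, and reads given here are values divided by that step.

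Entries with 1 sequence were merged. A name without an arm took that of the arm-named form of its family with the longest shared stretch, at least 12 bases. The test was limma 3.58.1 in R 4.3.3 on log2 values after adding 1 (a mean-variance trend was fitted except for ratios), for means of at least 5 on the deposited scale. Benjamini-Hochberg adjustment was made separately over all sequences, arm sums, family sums, family ratios and letter ratios, with a threshold of 0.05. Differences are petiole minus leaf; the added 1 understates changes of low sequences. Alternatives were equal totals, quantile and median ratio scaling, pseudocounts of 0.5 and 5, other filters, no trend, a replicate block and leaving out each library. Libraries of the same tissue were not copies of each other, with a chi-square of 3.78 to 10.6 per degree of freedom. Replicates may be technical, as the labels name no separate plants, and p-values then measure only that spread. The fit was also run on simulated log2 values drawn independently for each library. That run cannot show whether the replicates are technical, and its outcome is not used here.

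Values per library are given for members with a mean of at least 50 and the 6 main forms, and other names follow from the lists or were chosen after their values were seen. Members and lists were chosen with earlier results of these data known.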

Additional observations from a re-analysis of the deposited data

How the results depend on the processing

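The 5p to 3p ratio of miR172 stayed called higher in petiole in each alternative run on it, between 2.01 and 2.09 when 1 library was left out at 2.10 with the main forms only and at 1.91 after quantile normalization. The 5p sum was also called higher throughout, from 1.41 to 1.61 with 1 library left out. Scale decided the direction of the family sum (0.73 with equal totals and 0.50 after quantile normalization, both called) and of the 3p sum (0.33, called, and 0.13, not called). With equal totals bra-miR172a turned to 0.33, bra-miR172d-3p to 0.42, bra-miR172c-3p_R-1 to 0.76, mtr-miR172b_L+1 to 0.047 and bra-miR159a to 0.083. After quantile normalization these were 0.15, 0.080 and 0.71 for the first 3 and 0.12 for bra-miR159a; the cause was not tested. Median ratio scaling reversed none of these. Without leaf replicate 1 aly-miR172a-5p stood at -0.074 and without petiole replicate 2 at -0.027. The ratio for the letter a ranged from 0.58 to 0.86 with 1 library left out; that for d ranged from -1.02 to -0.37 and was called after quantile normalization (-1.74). With a mean of at least 50, fewer sequences were tested, and calls went from 298 to 156 in the table and from 41 to 22 in the phase change list. With a pseudocount of 5 bra-miR172d-5p (-1.39, adjusted p = 0.0307) and ath-miR399b (1.63, 0.0238) passed. Same-numbered leaf and petiole libraries did not deviate together (correlations of 0.02, 0.14 and -0.12), so the numbers were not taken as pairs; with a replicate block 280 sequences were called against 298, 9 miR172 members as before, ath-miR399b passed (adjusted p = 0.0488), and the 5p to 3p ratio was 2.05 (adjusted p = 0.00198). Few reads limit what can be said of bra-miR172d-5p and the extended forms. Leaving out libraries for the letters and shares, and rescaling for the ratios, were chosen after seeing the data.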
